A study of Mus musculus with 2 samples.

Results

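The genes described here are 10 receptors, regulators and ammonia channels of the intercalated cells of mouse kidney: Rhbg, Rhcg, Oxgr1, Insrr, Kit, Gpr116 (now Adgrf5), Hmx2, Dmrt2, Hepacam2 and Spink8. They were chosen by name and with earlier results of these data known, as the non-control probes of the arrays that carry one of these symbols. That gave 11 probes of 41174 and 10 genes of the 14106 named genes that were well above background on at least 1 array. All 11 probes were well above background on both arrays.

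RNA was measured in collecting duct cells, which were isolated by means of magnetic beads and DBA, the Dolichos biflorus lectin, a reagent for collecting duct epithelium. A single one-colour array held RNA of Gata2 CKO mice, labelled Gata2flox/-::Pax8-rtTA::Tet-Cre, that is, with a floxed and a null allele of the transcription factor gene Gata2 and a doxycycline-induced Cre under Pax8, which drives it along the renal tubule and not in the collecting duct alone. The other array held RNA of WT mice, for which the label names no transgene. Mice of both genotypes and of mixed gender were 8 weeks old, and the treatment described for the series was doxycycline for 4 weeks from the age of 4 weeks. The design lists 3 mice for each genotype. The arrays are named as mixtures, but that RNA was pooled is not stated. With 1 array per genotype there is no replicate check, no test was made, and every difference compares these 2 arrays.

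Intercalated cells are the acid-base cells of the collecting duct. They sit among the principal cells, which take up salt and water. Type A cells secrete acid through a proton pump, type B cells secrete bicarbonate, and the forkhead factor Foxi1 is needed for their identity in mice. Ammonia made in the proximal tubule reaches the urine through this segment, where Rhbg on the basolateral side and Rhcg, mostly on the apical side, let it pass. The receptors sense what the cell should respond to: Oxgr1 responds to 2-oxoglutarate in the tubule fluid, Insrr to alkali, and Kit to its ligand Kitl.

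Levels are processed signals on the log2 scale, set to 0 at the 75th percentile of each array, which was a signal of 250.1 on the CKO array and 314 on the WT array. Signals are those of the scanner software, less background and before this scaling, so an equal signal on both arrays is a higher level on the CKO array. Each difference is CKO minus WT in level, with the error that the scanner software gives for the spots of both arrays. The levels of different probes cannot be set against each other. A summed linear level of a list is therefore weighted to its brightest probes. In all, 62.4% of the spots of the CKO array and 64.1% of those of the WT array were well above background, and the lowest such signals were 11.6 and 12.0. The deleted gene, Gata2, was at 77.2% of the WT level by one probe (−0.37 ± 0.20, signals of 2424 on the CKO and 3943 on the WT array) and at 80.3% by the other (−0.32 ± 0.20, signals of 2194 on the CKO and 3432 on the WT array). These probes lie at positions 3051 and 2578 of the transcript. The labels do not name the deleted exons, so both probes may lie outside them and then check nothing about the genotypes. The share of cells in which Gata2 was deleted was not measured here. Among principal cell markers, 15 of 15 were well above background on both arrays, and so were 18 of 18 genes of the acid-base machinery of intercalated cells, Foxi1 among them.

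Of the 10 genes, 6 were higher on the CKO array by 1.5-fold or more. They were the receptors Oxgr1, Insrr, Kit and Gpr116, the transcription factor Dmrt2 and the adhesion protein Hepacam2. The same size and direction was met by 5.33% of all named genes, and 7.22% were at least 1.5-fold lower, as 0 of the 10 genes were. The ammonia channels Rhbg and Rhcg, the transcription factor Hmx2 and the protease inhibitor Spink8 differed by less than 1.5-fold. At 2-fold the count was 0 in both directions, where 1.25% of all genes were higher and 3.32% lower. By sign alone 9 of the 10 genes were above 0 and 1, Rhcg, was below it, against 54.3% and 45.0% of all genes. The median difference was 0.62, against 0.02 for all named genes. Since the genes were chosen with earlier results known, these counts and shares are a description and no test.

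The count depends on how the arrays are scaled. A scale set on 8 spike-in control transcripts lowers every difference by 0.54 and puts the median of all genes at −0.51. On that scale 0 of the 10 genes reached 1.5-fold, as 0.865% of all genes did. The 6 genes named above were at 0.08 to 0.40. They stay above 0 by the rule that picked them, because the shift of 0.54 is smaller than 1.5-fold (0.585). Rhbg, Spink8 and the brighter probe of Hmx2 were then below 0. Normexp background correction left 3 genes past 1.5-fold, Dmrt2 at 0.86, Gpr116 at 0.63 and Insrr at 0.61, with 1.89% of all genes. The median of the 10 genes minus that of all genes was 0.59 on the spike-in scale and 0.60 on the scale used here, so each value is relative to the other genes of the array. Differences between the 10 genes do not depend on a common scale. The 6 genes were split from the other 4 by these same differences, so that they lie above them follows from the rule. The gap from the lowest of the 6, Hepacam2 (0.62, next to Kit at 0.63), to the highest of the other 4, Hmx2 (0.22), was 0.40, or 1.32-fold. For scale, different probes of 1 gene differed with a root mean square SD of 0.27. Each of the 6 genes was read by 1 probe. After normexp correction the lowest of the 6 was Oxgr1 at 0.49, and the brighter probe of Hmx2 was at 0.15. In bulk RNA, more or fewer cells of a type and more or less RNA per cell cannot be told apart.

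**Figure D1:**
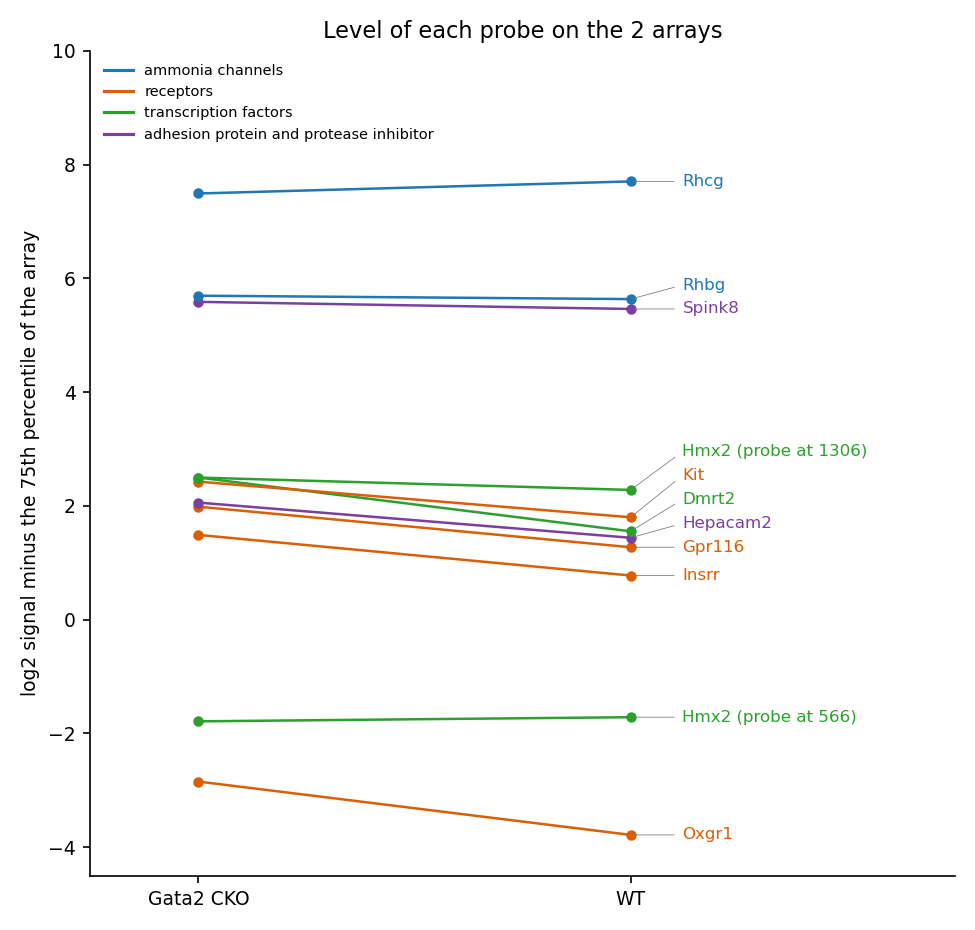
Level of each of the 11 probes (log2, set to 0 at the 75th percentile of each array) on the Gata2 CKO array, left, and the WT array, right. Each line joins the values of 1 probe, coloured by role, and its slope, not its height, can be compared between probes. The lines of the receptors run down to the right, those of Rhbg and Spink8 are close to flat, and Rhcg is the line that is higher on the WT side besides the dimmer Hmx2 probe; on the spike-in scale every CKO point would lie 0.54 lower.

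**Figure D2:**
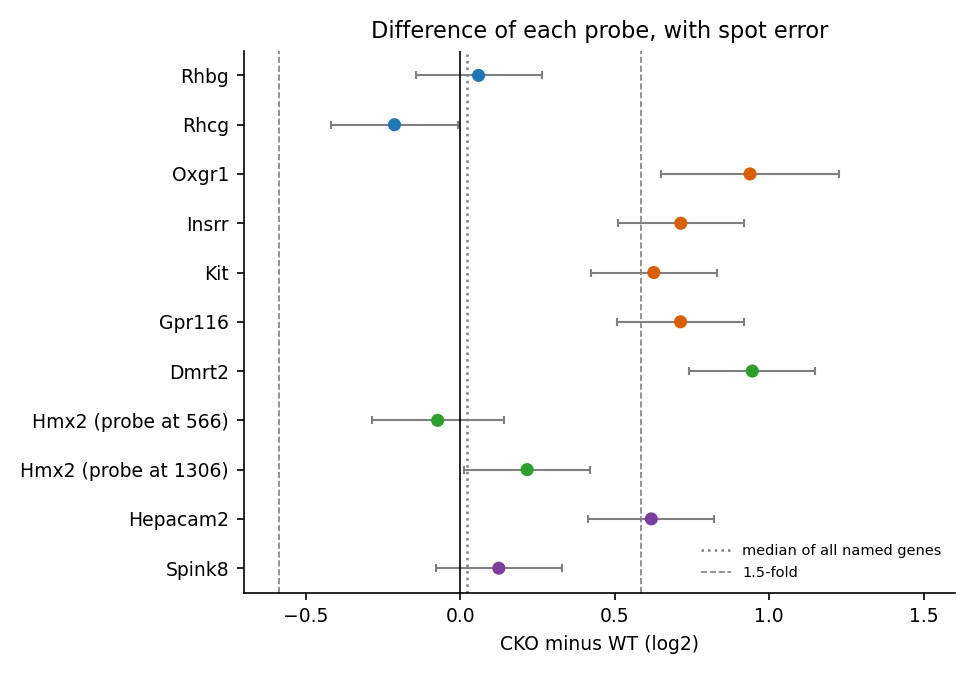
Difference of each probe (CKO minus WT, log2), grouped and coloured by role, with bars for the spot error of both arrays, and n = 1 array per genotype. Dashed lines mark 1.5-fold and the dotted line the median of all named genes. Oxgr1, Insrr, Kit, Gpr116, Dmrt2 and Hepacam2 lie past the upper dashed line and the other probes between the lines; on the spike-in scale all points would lie 0.54 further left.

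The ammonia channels differed by less than 1.5-fold, one above and one below 0. Rhbg, the basolateral channel of the Rh glycoprotein family, had a signal of 12954 on the CKO array and 15617 on the WT array, or levels of 5.69 and 5.63. The difference was 0.06 ± 0.20 (104% of the WT level), which is smaller than its spot error, and it ran from −0.0031 to 0.09 under the other settings but −0.48 with spike-in scaling. Rhcg, its apical relative, had a signal of 44989 on the CKO array and 65498 on the WT array, or levels of 7.49 and 7.70. It was the one gene of the 10 below 0, at −0.21 ± 0.20 (86.3% of the WT level), from −0.40 to −0.21 under the other settings and −0.75 with spike-in scaling. Rhbg lay above Rhcg in difference by 0.27, about the size of the spread between different probes of 1 gene (root mean square SD 0.27 over 5312 genes), and by 0.50 after quantile normalization. Both probes are among the brightest of 10 equal groups of genes by signal. In that group of 1411 genes the median difference was 0.06, and 3.26% were at least 1.5-fold higher. Rhbg stood at percentile 50.2 of the group and Rhcg at percentile 10.6. No spot was saturated on either array.

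The 30 bases that open each 60-base probe are shown for the channels because the channels are related genes whose signals a shared stretch could mix. The Rhbg probe lies on chr3:88047265-88047324 (mm9, minus strand, position 1383 of the transcript) and the Rhcg probe on chr7:86738278-86738337 (mm9, minus strand, position 2001).
Rhbg: gggagtcagacacccgggcctaattgctgc
Rhcg: tgctccccaacaatgtatttcccatgttcc
Over the 55 pairs of the 11 probes, compared on whole probes, the longest run of identical bases was 11, between Rhbg and Spink8. Probes were compared only with each other and not with the transcript of the other gene, so mixing of signals was not tested. The Rhbg probe is 55.0% and the Rhcg probe 43.3% G and C.

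Genes that make or move ammonia were measured as a list of 14, of which 12 were above background on at least 1 array. Of these, 6 were higher and 6 lower on the CKO array, 2 higher and 2 lower by 1.5-fold or more, and the median was −0.02, or 0.11 when the probes of each gene were averaged. Slc12a2, the basolateral sodium, potassium and chloride cotransporter, which can also carry ammonium, had a signal of 484 on the CKO array and 164 on the WT array, a difference of 1.89 ± 0.21 (3.70-fold). The glutamine transporter Slc38a3, at 0.78 ± 0.37, was dim, with signals of 21.7 on the CKO array and 15.9 on the WT array. The proton and potassium pumps were lower, Atp4a at −1.13 ± 0.20 (signals of 501 on the CKO and 1382 on the WT array) and Atp12a, which was dim, at −0.93 ± 0.27 (22.9 on the CKO and 54.8 on the WT array).

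All 4 receptors were higher on the CKO array by 1.5-fold or more, against 5.33% of all named genes. Their differences were 0.63 to 0.94, with a median of 0.71. On the spike-in scale they were at 0.08 to 0.40, with Kit, Insrr and Gpr116 below their spot error of 0.20. Any gene past 1.5-fold stays above 0 on that scale, because the shift of 0.54 is smaller than 1.5-fold (0.585). Insrr, the insulin receptor-related receptor, a tyrosine kinase that is activated by alkaline fluid, had a signal of 702 on the CKO array and 538 on the WT array, or levels of 1.49 and 0.78. The difference was 0.71 ± 0.20 (1.64-fold), at percentile 98.1 of the 1410 genes of like signal. Its probe is on chr3:87619377-87619436 (mm9, plus strand, position 4455). Insrr and Rhbg lie 0.428 Mb apart on chromosome 3 by their probes, yet Insrr was above Rhbg in difference by 0.65. The 13 named genes between them had a median of 0.09, and 1 was at least 1.5-fold higher.

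The genes around the insulin receptor had no common direction. Of 10 listed, 9 were measured, 4 higher and 5 lower, with 1 at least 1.5-fold higher, 0 lower by that size, and a median of −0.01 that was 0.064 after normexp correction. Insr, the insulin receptor itself, was at −0.18 ± 0.20 by one probe and 0.22 by the other. Igf1r, the receptor of insulin-like growth factor 1, was at −0.16 ± 0.20 by its brightest probe and at −0.03, 0.02 and 0.17 by others. The adaptor Irs1 was at 0.34 ± 0.20, with a second probe at 0.85. The kinase Pdpk1, the gene past 1.5-fold, was at 0.80 ± 0.20 by its brightest probe and at 0.44 and −0.15 by others.

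Gpr116, an adhesion G protein-coupled receptor known from lung surfactant control and found in type A intercalated cells of mice, had a signal of 991 on the CKO array and 759 on the WT array, or levels of 1.99 and 1.27. The difference was 0.71 ± 0.20 (1.64-fold), the same to 2 decimals as that of Insrr, at percentile 98.1 of the 1411 genes of like signal. Its probe is on chr17:43596281-43596340 (mm9, plus strand, position 8309). Endothelial cells express Gpr116 as well. Of 17 endothelial markers 16 were measured, all 16 lower on the CKO array and 5 at least 1.5-fold lower. Of all named genes, 45.0% were lower and 7.22% at least 1.5-fold lower. The endothelial median was −0.33 (−0.018 after normexp correction), and the summed linear level was 2.30 on the CKO array and 3.63 on the WT array. Vwf, the clotting factor of endothelium, was at −1.78 ± 0.32, the phosphatase Ptprb at −1.48 ± 0.21, the junction protein Cldn5 at −1.06 ± 0.21 and the guidance receptor Robo4 at −0.59 ± 0.27. In number, 13 of the 17 were above background on the CKO array and 16 on the WT array, and Tie1 was on neither. The part of endothelial cells in the Gpr116 difference was not tested.

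Kit, the receptor tyrosine kinase for Kitl, was printed in 10 spots on each array, the one gene of the 10 with repeated spots. The CKO spots had signals of 1211 to 1399 with a median of 1359, and the WT spots 1020 to 1169 with a median of 1097. In level the CKO spots ran from 2.28 to 2.48 (SD 0.064) and the WT spots from 1.70 to 1.90 (SD 0.062), and the spots of the 2 arrays did not overlap. The difference was 0.63 ± 0.20 (1.54-fold). Taken at each of the 10 positions in turn it ran from 0.58 to 0.70 (SD 0.036, n = 10 spots). Repeated spots share 1 RNA sample and 1 labelling, so they show the error of printing and scanning and nothing of the mice. The scanner's spot error, 0.20, is wider than what these spots show. Over all probes printed 10 times, the SD of the difference between spots ran from 0.25 in the dimmest of 5 groups by signal to 0.032 in the brightest.

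The Kit probe is shown since 10 spots carry it. It lies on chr5:76052287-76052346 (mm9, plus strand, position 4665 of the transcript). Like the Oxgr1 probe described below, it is listed under a sequence that is not a RefSeq transcript.
Kit: tgtggtcatgtacgagactgtcaccagtta

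**Figure D3:**
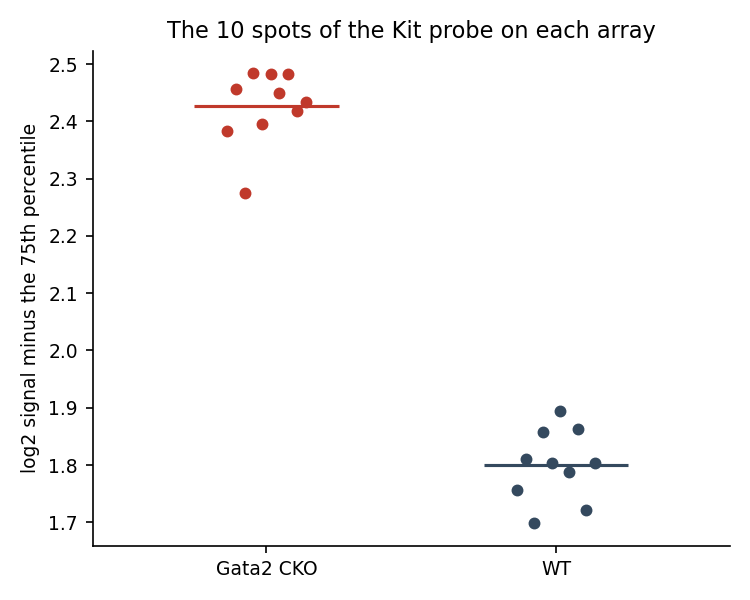
Level of the Kit probe (log2 signal minus the 75th percentile) in each of its 10 spots on the Gata2 CKO array, left, and the WT array, right, with the mean of the spots. The CKO spots lie between 2.28 and 2.48 and the WT spots between 1.70 and 1.90; spots are repeats of 1 RNA sample.

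The ligand and the signalling partners of Kit had no common direction. Of 22 listed, 21 were measured, 8 higher and 13 lower, with a median of −0.06 that was 0.046 when the probes of each gene were averaged; 0 were higher and 1 was lower by 1.5-fold or more. Kitl had a signal of 369 on the CKO array and 625 on the WT array by its brighter probe, a difference of −0.43 ± 0.20, but its other probe gave 0.10. Mitf, a transcription factor that acts with Kit in melanocytes and mast cells, was at −3.33 ± 0.20 by its brighter probe (450 on the CKO and 5682 on the WT array), and its other probe was at −0.06. The kinases were nearer to 0, with Pik3cd at −0.56 ± 0.21 (other probe −0.05) and Lyn at −0.32 ± 0.20 (other probe −0.32). Mast cells, which also carry Kit, were followed by 12 markers. The mast cell proteases Cpa3, Mcpt1, Mcpt2, Mcpt4, Tpsab1 and Tpsb2 were above background on neither array. The 6 measured markers, of which 3 were above background on the CKO array and 6 on the WT array, had a median of −0.52, with 1 higher and 4 lower. That median was −0.075 after normexp correction and 0.15 without a filter on dim probes. Their summed linear level was 10.05 on the CKO array and 13.04 on the WT array, most of it Gata2, the deleted gene, which is in the list. The protease Cma1 was above background on both arrays but dim, at 14.6 on the CKO and 29.2 on the WT array (−0.67 ± 0.36). The transcription factor Gata1 was at 0.55 ± 0.23. Above background on the WT array only were Fcer1a, Ms4a2 and Hdc, with bounds of 0, −1.02 and −1.39. The part of mast cells in the Kit difference was not tested.

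Oxgr1, a G protein-coupled receptor for 2-oxoglutarate that is found in type B intercalated cells of mice, had the dimmest probe of the 10 genes. Its signal was 34.8 on the CKO array and 22.8 on the WT array, not far above the lowest signals well above background, 11.6 on the CKO and 12.0 on the WT array. The levels were −2.85 and −3.78, and the difference was 0.94 ± 0.29 (1.92-fold). It was 0.49 after normexp background correction, which adds an offset to every signal, and 0.40 with spike-in scaling. Without Oxgr1, 8 of the other 9 genes were above 0 and 5 at least 1.5-fold higher (54.3% and 5.33% of all named genes). The median was still 0.62. The probe was designed on a cDNA of neonatal kidney and not on a RefSeq transcript, and is shown for that reason. It lies on chr14:120438258-120438317 (mm9, minus strand, position 3329) and holds 21 G or C among its 60 bases, the fewest of the 11 probes.
Oxgr1: ttcggttaagccaacttttatgcatatgtc

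Oxgr1 signals through Gq. The genes of that pathway and of the handling of 2-oxoglutarate had medians on either side of 0. Of 13 Gq signalling genes, 6 were higher and 7 lower, 0 higher and 3 lower by 1.5-fold or more, with a median of −0.16 that became 0.07 over probes above background on both arrays. Rgs2, which turns Gq off, was at −0.69 ± 0.20 (signals of 1453 on the CKO and 2950 on the WT array), and its second probe at −0.87. Gnaq, the alpha subunit, was at −0.26 ± 0.20 and −0.24, and the phospholipases Plcb2 and Plcb3 were at −0.52 ± 0.25 and −0.31 ± 0.21. For transport and metabolism of 2-oxoglutarate, 12 of 15 genes were measured, 8 higher and 4 lower, 0 past 1.5-fold in either direction, with a median of 0.17 (−0.37 on the spike-in scale). Slc22a6, an organic anion exchanger that carries 2-oxoglutarate, was at 0.46 ± 0.20 and its relative Slc22a8 at −0.29 ± 0.23. The enzymes Idh1, which makes 2-oxoglutarate, and Ogdh, which uses it, were at 0.37 ± 0.21 and 0.34 ± 0.20.

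The transcription factors differed from each other. Dmrt2, a DM-domain factor of type A intercalated cells in mice, had a signal of 1413 on the CKO array and 922 on the WT array, or levels of 2.50 and 1.55. The difference of 0.95 ± 0.20 (1.93-fold) was the largest of the 10 genes, next to that of Oxgr1, and at percentile 99.1 of the 1411 genes of like signal. It was 0.86 to 0.95 under the other settings and 0.40 on the spike-in scale. Its probe is on chr19:25753414-25753473 (mm9, plus strand, position 2269).

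Hmx2, a homeobox factor, had 2 probes. The brighter one, at position 1306 of the transcript, had a signal of 1412 on the CKO array and 1527 on the WT array, or levels of 2.50 and 2.28, a difference of 0.22 ± 0.20 (116% of the WT level). It was −0.33 on the spike-in scale. The dimmer one, at position 566, had a signal of 72.5 on the CKO array and 95.8 on the WT array, or levels of −1.79 and −1.71, a difference of −0.07 ± 0.21 (95.1% of the WT level). Neither difference was much larger than its spot error, and their signs were opposite. With the dimmer probe in place of the brighter one, 8 of the 10 genes were above 0 and 2 below, and the 6 past 1.5-fold and the median stayed the same. Dmrt2 was above Hmx2 in difference by 0.73 and above Rhcg by 1.16 (2.23-fold), the widest gap among the 10 genes. The openings of both probes are shown because they read the same gene at different positions of its transcript. They lie on chr7:138698994-138699053 and chr7:138699734-138699793 (mm9, plus strand) and are 55.0% and 45.0% G and C.
Hmx2 at 566: ttcctttctccttctcacccggactttaag
Hmx2 at 1306: gcacctgctttctacacaaaaccaaacaac

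Hepacam2, an immunoglobulin-like adhesion protein of intercalated cells, had a signal of 1041 on the CKO array and 852 on the WT array, or levels of 2.06 and 1.44, a difference of 0.62 ± 0.20 (1.54-fold). It is the gene nearest to the 1.5-fold line on its upper side. Its probe lies on chr6:3407640-3407699 (mm9, minus strand, position 1625), on the chromosome of Gata2 but 84.7 Mb away. The 377 named genes between the probes of Hepacam2 and Gata2 had a median of 0.03, and 23 of them were at least 1.5-fold higher. Spink8, a secreted Kazal-type inhibitor of serine proteases, had a signal of 12017 on the CKO array and 13845 on the WT array, or levels of 5.59 and 5.46. Its difference, 0.13 ± 0.20 (109% of the WT level), was smaller than the spot error and was −0.42 on the spike-in scale. The 60 bases of its probe span 1880 bases of genome, on chr9:109727065-109728944 (mm9, plus strand, position 422), so the probe crosses a splice junction.

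The 6 genes past 1.5-fold had signals of 34.8 to 1413 on the CKO array and 22.8 to 1094 on the WT array. By their brightest probes, the 4 genes within 1.5-fold had signals of 1412 to 44989 on the CKO array and 1527 to 65498 on the WT array. The dimmer Hmx2 probe, also within 1.5-fold at −0.07, had signals of 72.5 on the CKO array and 95.8 on the WT array, inside the range of the 6 genes. Of the brightest of the 10 groups of genes 3.26% were at least 1.5-fold higher, against 3.18% of the 4th to 9th groups, counted from the dimmest. Over all named genes it was 5.33%, so the share was higher in the groups dimmer than the 4th. Oxgr1 is in group 2. Whether signal has a part in the split of the 10 genes was not tested.

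**Figure D4:**
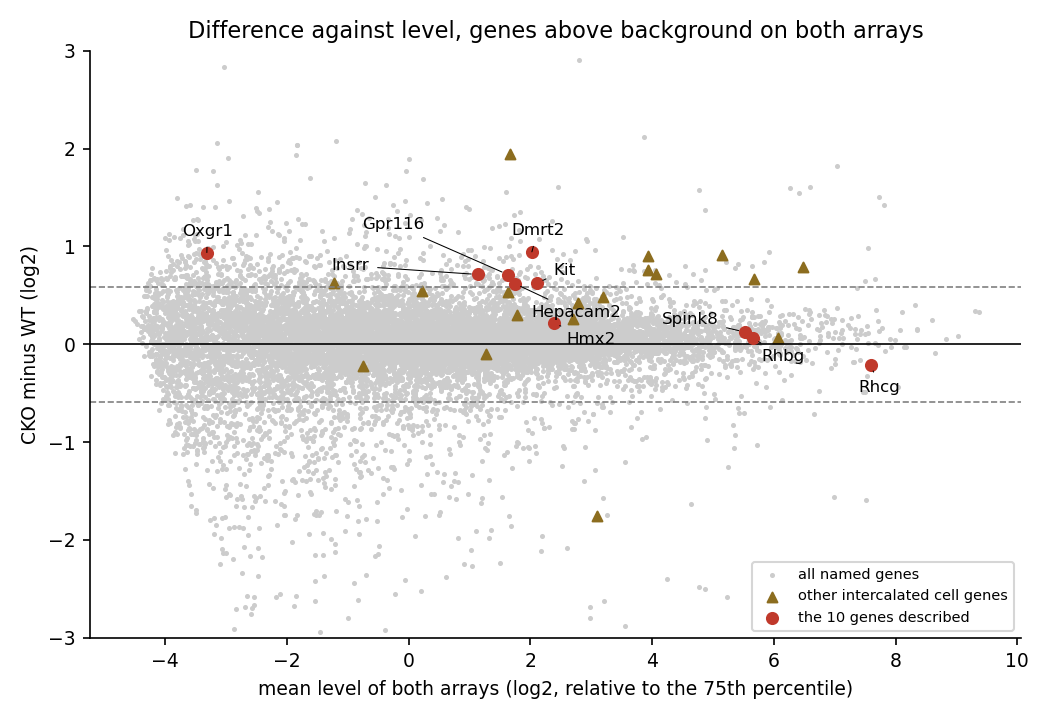
Difference (CKO minus WT, log2) against mean level of both arrays for the named genes above background on both. The 10 genes are circles, 18 acid-base genes of intercalated cells are triangles, and dashed lines mark 1.5-fold. Genes past 3 in either direction are not drawn. Rhbg, Rhcg and Spink8 lie near 0 at the right, Oxgr1 at 0.94 at the dim left, and the other genes past 1.5-fold between 0.62 and 0.95 in the middle; on the spike-in scale every point would lie 0.54 lower.

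Other genes of intercalated cells were compared through a list of 18 genes of acid-base transport and its control. Of these, 15 were higher and 3 lower on the CKO array, 8 higher and 1 lower by 1.5-fold or more. Of all named genes, 54.3% were higher, and 5.33% were higher and 7.22% lower by that size. The median of the list was 0.54, and −0.0022 on the spike-in scale. Atp6v1b1, the proton pump subunit typical of intercalated cells, had a signal of 1560 on the CKO array and 511 on the WT array, a difference of 1.94 ± 0.20 (3.84-fold). Slc4a1, the basolateral chloride and bicarbonate exchanger of type A cells, was at 0.91 ± 0.20 (signals of 12190 on the CKO and 8129 on the WT array), and the intracellular channel Aqp6 at 0.90 ± 0.20. Car15, a carbonic anhydrase, went the other way, at −1.75 ± 0.20 (1160 on the CKO and 4905 on the WT array). The proton and potassium pumps Atp4a (−1.13) and Atp12a (−0.93), also lower, are in the ammonia list and not among the 18. Foxi1 had a signal of 352 on the CKO array and 303 on the WT array, a difference of 0.55 ± 0.20 (1.46-fold), just under the 1.5-fold line and below Hepacam2.

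Of 34 close relatives of the 10 genes, 16 were above background on one array or both. In this list 5 were higher and 11 lower, 2 higher and 5 lower by 1.5-fold or more, with a median of −0.17. Adgrf1, of the receptor family of Gpr116, had a signal of 450 on the CKO array and 166 on the WT array, at 1.77 ± 0.21 (3.42-fold). Spink1, of the inhibitor family of Spink8, was at −2.09 ± 0.20 (733 on the CKO and 3915 on the WT array). Pdgfrb and Csf1r, receptor tyrosine kinases of the family of Kit, were at −1.47 ± 0.24 and −0.90 ± 0.20, and Csf1r was at −1.03 and −0.44 by its other probes.

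Markers of other cell types differed between the arrays too. Principal cell markers had 4 of 15 higher and 11 lower, 1 higher and 3 lower by 1.5-fold or more, with a median of −0.28. Their summed linear level, weighted to the brightest probes, was 1023 on the CKO array and 1225 on the WT array. The water channel Aqp4 was at 0.62 ± 0.20, while Npnt, an extracellular matrix protein, was at −0.70 ± 0.20, the steroid enzyme Hsd11b2 at −0.61 ± 0.20 and the prostaglandin enzyme Ptgs1 at −0.60 ± 0.20. All 12 macrophage markers were lower, 10 of them at least 1.5-fold (45.0% and 7.22% of all named genes). Their median was −0.78, with a summed level of 57.7 on the CKO array and 114 on the WT array. That sum is weighted to its brightest probe, that of Lyz2 (signals of 6177 on the CKO and 18525 on the WT array). Lyz2, the lysozyme of myeloid cells, was at −1.25 ± 0.20 (other probe −1.25) and the integrin Itgam at −1.47 ± 0.30. The surface receptor Adgre1 was at −0.86 ± 0.20 by its brighter probe and at −0.28 by a dim one, and Csf1r, the receptor of their growth factor, is given above. The part of these cell types in the differences of the 10 genes was not tested.

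**Figure D5:**
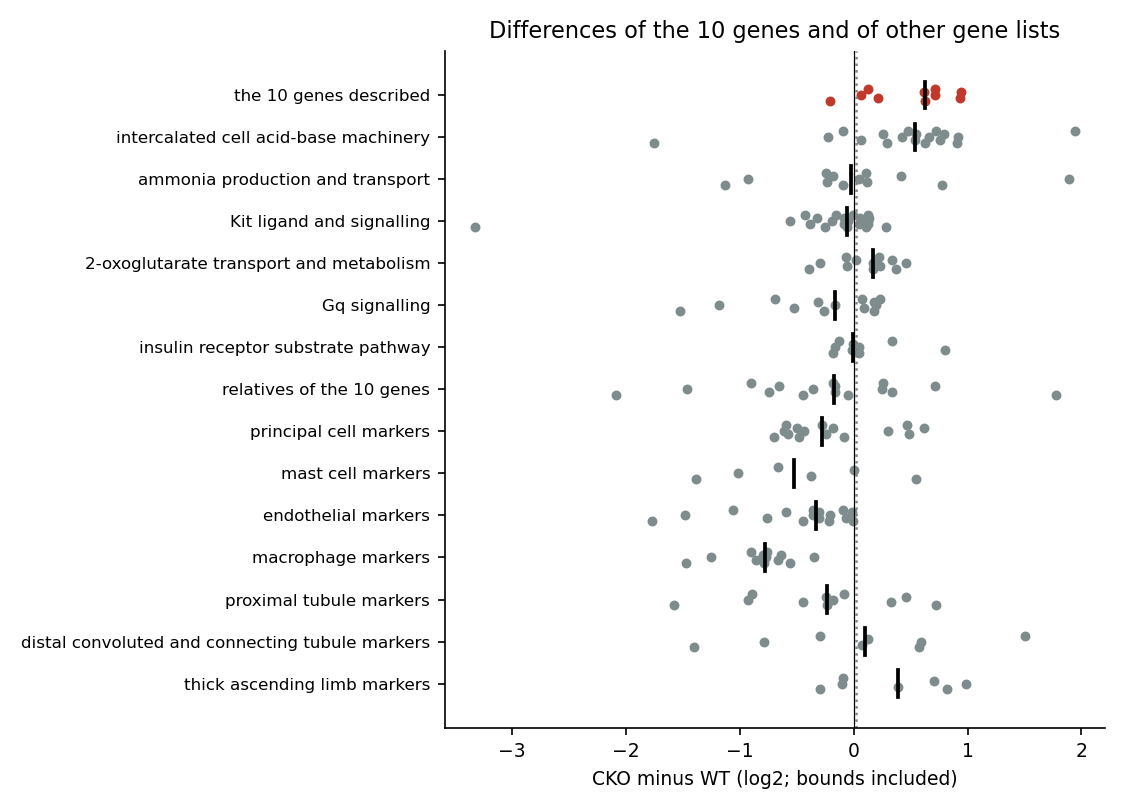
Difference (CKO minus WT, log2) of every measured gene of each list, 1 point a gene, with the list's median as a bar, 0 as a solid line and the median of all named genes as a dotted line; genes above background on 1 array only are at their bound. The 10 genes described are at the top, with a median of 0.62, above acid-base machinery at 0.54, while the ligand and pathway lists have medians of −0.16 to 0.17; on the spike-in scale every point would lie 0.54 further left.

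The stretch of 250 bases before the transcription start was given for 7 of the 10 genes, in 10 windows, in RefSeq on GRCm38.p6: Kit, Gpr116, Oxgr1, Rhcg, Hmx2, Dmrt2 and Hepacam2. It was searched on both strands for the letters that GATA factors bind (NGATAN, with A or T as the first base and A or G as the last). They were in 0 of the 10 windows, against 26.5% of the 32851 windows of all genes. The letters of forkhead factors such as Foxi1 (NNAAANA, with A or G as the first base and C or T as the second and the sixth) were in 2 of the 10 windows, against 24.9% of all. These were the window of Hepacam2, where the match opens 44 bases before the start, and one of the windows of Hmx2, where it opens 71 bases before the start. GATA and forkhead forms can overlap, since some of both hold the letters ATAA, and a match shows neither binding nor control. Both windows are shown with the match in capitals. They are chr6:3494499-3494748 (minus strand) for Hepacam2 and chr7:131548507-131548756 (plus strand) for Hmx2, from RefSeq on GRCm38.p6.
Hepacam2: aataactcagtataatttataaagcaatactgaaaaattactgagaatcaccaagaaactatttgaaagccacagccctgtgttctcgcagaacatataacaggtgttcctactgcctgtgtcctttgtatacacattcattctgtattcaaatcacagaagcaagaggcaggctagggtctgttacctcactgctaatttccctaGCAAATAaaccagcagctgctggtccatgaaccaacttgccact
Hmx2: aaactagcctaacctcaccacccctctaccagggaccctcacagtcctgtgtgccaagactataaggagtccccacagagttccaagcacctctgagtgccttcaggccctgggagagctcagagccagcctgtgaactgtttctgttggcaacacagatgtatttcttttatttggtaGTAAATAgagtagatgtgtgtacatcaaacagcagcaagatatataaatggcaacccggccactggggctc
Of these 2 genes, Hepacam2 was past 1.5-fold on the arrays and Hmx2 was not.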

How the data were processed

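Data of 2 one-colour arrays, 1 of Gata2 CKO and 1 of WT collecting duct cells, were used. The deposited files hold spot intensity on a linear scale, read per the file headers with Agilent Feature Extraction 10.7.3.1, whose processed signal is background-subtracted. Per the labels' protocols, 50 ng of RNA was amplified and labelled with Cy3. Slide and scan were the same for both arrays. The authors' own normalization is not named in the labels or headers.

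Processed signals were put on the log2 scale and set to 0 at the 75th percentile over the 43379 non-control spots of each array. Spots flagged as outliers, 73 on the CKO array and 66 on the WT array, were left out, and repeated spots were averaged. Where a gene had several probes well above background on 1 array or both, the one of highest mean signal stood for it. A gene above background on a single array is given at its bound. Symbols came from RefSeq (GRCm38.p6) for 26876 of 41174 probes by accession and from the files for 3663, and 10635 probes have no name. Coordinates are the files' own, on mm9, and whether probes lie in coding or untranslated exons was not analysed here.

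No test was run, since each genotype has 1 array, and genes were counted at 1.5-fold and 2-fold beside the share of all named genes. On the main scale, 5.33% of all named genes were higher and 7.22% lower by 1.5-fold or more. These shares belong beside the count of every list. Spot errors do not cover mice, purification or labelling, and precision is limited by the number of arrays. The 10 genes and the 14 other lists were chosen with earlier results of these data known. Named are all probes of the 10 genes and of Gata2, the genes Kitl and Foxi1, and of each other list up to 4 genes of largest difference among those above background on both arrays. Mast cell markers above background on the WT array only are named too. Alternatives were cyclic loess, quantile normalization, normexp background correction (offset 50), scaling on spike-in transcripts or on the median of probes above background, keeping flagged spots, other filters on dim probes, and the mean over a gene's probes. The steps were tested on simulated data. The tools were limma 3.58.1 in R 4.3.3, and numpy 2.4.6, pandas 2.3.3 and matplotlib 3.10.9 in Python 3.11.15.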

Additional observations from a re-analysis of the deposited data

How the results depend on the processing

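Spike-in scaling moved most values, by a shift common to all genes. With it the median of the 10 genes was 0.080 and 0 were at least 1.5-fold higher, with 0.865% of all genes. The probes were at 0.40 (Dmrt2), 0.40 (Oxgr1), 0.17 (Insrr), 0.17 (Gpr116), 0.08 (Kit), 0.08 (Hepacam2), −0.33 (brighter Hmx2 probe, of opposite sign to the value above), −0.42 (Spink8), −0.48 (Rhbg), −0.61 (dimmer Hmx2 probe) and −0.75 (Rhcg). List medians above 0 turned negative, at −0.0022 for acid-base machinery, −0.15 for thick ascending limb, −0.37 for 2-oxoglutarate and −0.45 for distal convoluted and connecting tubule. The others were −0.55 for the insulin receptor pathway, −0.57 for ammonia, −0.60 for Kit ligand and signalling, −0.70 for Gq, −0.71 for relatives of the 10 genes, −0.77 for proximal tubule, −0.82 for principal cells, −0.87 for endothelium, −1.06 for mast cells and −1.32 for macrophages. Normexp correction left 3 genes at least 1.5-fold higher, Dmrt2, Gpr116 and Insrr, with 1.89% of all genes. It put Oxgr1 at 0.49, endothelium at −0.018 and mast cells at −0.075. Without a filter on dim probes mast cells were at 0.15 and relatives of the 10 genes at 0.24, both of opposite sign, and 8.01% of all genes were at least 1.5-fold higher. Over probes above background on both arrays, Gq was at 0.073, of opposite sign. Medians near 0 also turned positive: ammonia with the mean over probes (0.11), normexp (0.067) and no filter (0.043), the insulin receptor pathway with normexp (0.064) and the mean over probes (0.018), and Kit signalling with the mean over probes (0.046). The count past 1.5-fold was 5 with cyclic loess, with 3.89% of all genes, and 4 with scaling on the median, with 4.30%. Under the remaining settings the probes of the 10 genes moved by less than their spot error. The median of the 10 genes minus that of all genes was 0.48 to 0.61 over all settings run, spike-in scaling included. No paired analysis was possible because each genotype has 1 array, which also leaves no array to leave out. Depth here is signal over background, which limits Oxgr1 and the mast cell and endothelial markers. Beyond the shift of the spike-in scale, the cause of these changes was not tested.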

Other observations

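Marker genes of other tubule segments had no single direction. Of all named genes, 5.33% were higher and 7.22% lower by 1.5-fold or more. Thick ascending limb markers had 4 of 7 higher on the CKO array, 3 of them at least 1.5-fold, and 0 lower by that size, with a median of 0.39 (−0.15 on the spike-in scale). The tight junction genes Cldn16, Cldn10 and Cldn19 were at 0.98 ± 0.22, 0.82 ± 0.21 and 0.70 ± 0.23 (other Cldn19 probe 0.42), and Umod, the secreted uromodulin, was at 0.39 ± 0.20. Markers of distal convoluted and connecting tubule had 5 of 8 higher, 2 higher and 2 lower by 1.5-fold or more, with a median of 0.10 (−0.45 on the spike-in scale). Klk1, the tissue kallikrein of the connecting tubule, was at 1.51 ± 0.20 and the calcium channel Trpv5 at 0.59 ± 0.21, while the thiazide-sensitive cotransporter Slc12a3 was at −0.78 ± 0.20 and the dim calcium-binding protein gene Pvalb at −1.40 ± 0.36. Proximal tubule markers had 3 of 11 higher and 8 lower, 1 higher and 3 lower by 1.5-fold or more, with a median of −0.23. The endocytic receptors Lrp2 and Cubn were at −1.58 ± 0.20 and −0.89 ± 0.22, with other probes of Lrp2 above background on both arrays at −1.20 and −0.26, the transporter Slc5a12 at −0.93 ± 0.21, and the water channel Aqp1 at 0.72 ± 0.20.

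Hmx3, the homeobox gene most like Hmx2, was named after its value was seen. Its signal was 79.9 on the CKO array and 158 on the WT array, a difference of −0.65, against 0.22 and −0.07 by the probes of Hmx2. Only 2 arrays bear on these values, and none of them has a replicate check.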
